A study of Mus musculus with 11 samples.

Results

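The cytosolic ribosomal protein genes measured in epididymal white adipose tissue (eWAT) of mice were 61 of 15453 genes. They were chosen by symbol alone, as genes named Rpl or Rps with a following digit, without Rps6k kinases and pseudogene symbols, together with Rplp0, Rplp1 and Rpsa. Among them were 33 proteins of the large subunit, 22 of the small subunit, 5 paralogs (Rpl7l1, Rpl36al, Rpl39l, Rps27l and Rps4y2) and 1 gene, Rps19bp1, whose product binds a ribosomal protein and is no subunit. The mice were 6 wildtype (WT) males and 5 male littermates that had inherited an inactivated Mest from the father (pKO), all C57BL/6J, 16 weeks old and fed a high fat diet from 8 weeks of age. In pKO mice exon 3 of Mest, an imprinted gene expressed from the paternal allele, was deleted in the germ line with an EIIa-cre transgene, so the deletion was present in every cell type, and the mice for sequencing had been selected from a larger cohort. Expression was measured with SAGE, or serial analysis of gene expression, which counts a transcript once, by a short tag. The tag starts at the transcript's NlaIII site (CATG) closest to the polyA tail, so a count needs no correction for transcript length. Levels of different genes still depend on which tag was counted and on tags shared with other genes. Levels are scaled tag counts, the count in a library over that library's size factor.

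A ribosome is built from ribosomal RNA and a set of proteins, most of them present once per ribosome, with a small subunit that reads the messenger RNA and a large subunit that joins amino acids and holds the exit tunnel. The messenger RNAs of these proteins begin with a C in a run of pyrimidines, the terminal oligopyrimidine tract, through which mTOR signalling and Larp1 set how strongly they are translated. In adipose tissue, as in other tissues, they are among the most abundant messenger RNAs and have many processed pseudogenes in the mouse genome.

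The libraries held 9659740 to 14825727 tags per WT mouse and 11320342 to 14626803 per pKO mouse, and 253262 to 406888 of these per mouse belonged to ribosomal protein genes. Mest was at 25107 ± 2672 in WT (SD, n = 6) and at 1663 ± 566 for pKO (SD, n = 5), and no WT value overlapped a pKO value. All 12 adipocyte markers were measured in every mouse, with a summed level of 732373 to 1150662 in WT and 792445 to 1151262 in pKO mice. Of the 13 markers of epididymis and testis 2 were in the tables, with a summed level of at most 43.8 in any mouse. Numbered mice are single animals, and nothing in the labels gives a sequencing or extraction batch.

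Because a ribosomal protein gene is seen in SAGE only through its tag, the tags of the genes that the results turn on are shown here, read from GENCODE M21 transcripts (GRCm38) as CATG in capitals and the 21 bases after it. The first set holds 4 of the most abundant genes.
Rpl9: CATGaacaatttgggctcttttggg
Rpl10a: CATGggcaagccccagcgtctgtat
Rpl27: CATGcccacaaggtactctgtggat
Rpl5: CATGctatattaactgaacttttta
The second set holds 3 genes with some of the lowest levels.
Rpsa: CATGcctcatagatccttctacctc
Rpl6: CATGgctgccttttactgtggctgt
Rps13: CATGcacgctcccgggaagggcctg
The third set holds the 5 genes that differed between genotypes at an unadjusted p of at most 0.05.
Rpl4: CATGgtcaaacttaggtcatcagaa
Rps3: CATGatgagtacagatgtacctttt
Rpl21: CATGtcttcagtgagggactctgca
Rpl31: CATGggaaattagaaatacgtgaaa
Rpl19: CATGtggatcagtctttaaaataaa

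Of these tags, that of Rpl9 lay in the 3' UTR in exon 8 of 8 (chr5:65388387-65388411, minus strand) and that of Rpl10a in the coding sequence in exon 6 of 6 (chr17:28330973-28330997, plus strand). The Rpl27 tag was coding and crossed an exon junction on chromosome 11. The tags of the 5 genes that differed between genotypes were all in the 3' UTR of the last exon, at chr9:64178604-64178628 for Rpl4, chr7:99477981-99478005 for Rps3, chr5:146836944-146836968 for Rpl21, chr1:39371465-39371489 for Rpl31 and chr11:98030436-98030460 for Rpl19. Each of these 5 tags was found in no other annotated gene. For Rps3, Rpl21 and Rpl31 the annotated coding transcripts did not all give the same tag, and for Rpl4 and Rpl19 they did.

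Sharing of tags with other genes was common in this family. For 60 of the 61 genes a transcript was annotated, and 30 of them had a tag found in 1 gene only, 26 had a tag that also occurred in transcripts of other annotated genes, and in 4, among them Rpl22, the tag ran past the transcript end. Over the other genes of the tables with a full tag, 462 of 12288 (3.76%) had a shared tag. In both sets a match was counted at any CATG of another gene's transcript. SAGE reads only the CATG closest to the polyA tail, so a matched gene need not be one that could give the tag. In 23 of the 26 ribosomal protein genes at least 1 of the other genes was a pseudogene, and the number of other genes had a median of 3.5. The Rpl27 tag occurred in 10 pseudogenes and the Rpl10a tag in 4, while the Rpl9 and Rplp1 tags each occurred in 1 other gene that was no pseudogene. The tag of Rpl7l1, a paralog known from ribosome assembly in the nucleolus, occurred in 263 other genes.
Rpl7l1: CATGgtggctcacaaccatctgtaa
How tags with several origins were counted is not given in the sources used here, so the levels of the 26 genes with shared tags are uncertain.

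Levels and tag sharing were set side by side as a description. Genes with a shared tag had a median level of 5504 (1.56 to 52834), and those with a tag in 1 gene had a median of 280 (4.33 to 16980). At a mean of at least 1000 there were 15 genes with a shared tag and 12 with a tag in 1 gene, and under 50 there were 5 and 9. The 30 genes whose tag lay in the coding sequence had a median of 5504, and the 30 whose site lay in the 3' UTR had a median of 163. The transcript read for a gene was the longest RefSeq-linked one, and in 11 genes it was longer than 1500 bases, with a median level of 135, against 2276 for the 49 with shorter transcripts. In 28 genes the annotated coding transcripts did not all give the same tag, and which of these tags were counted is not known. Another 26 annotated coding genes that follow the same naming rule, such as Rplp2, Rps27a and Rpl3, had no entry under those symbols among the 15453 genes. They therefore enter none of the levels and shares given here, which cover only part of the family. Of those, 20 had a shared tag, and Rpl35a and Rps21 had no CATG in the transcript that was read.

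**Figure D1:**
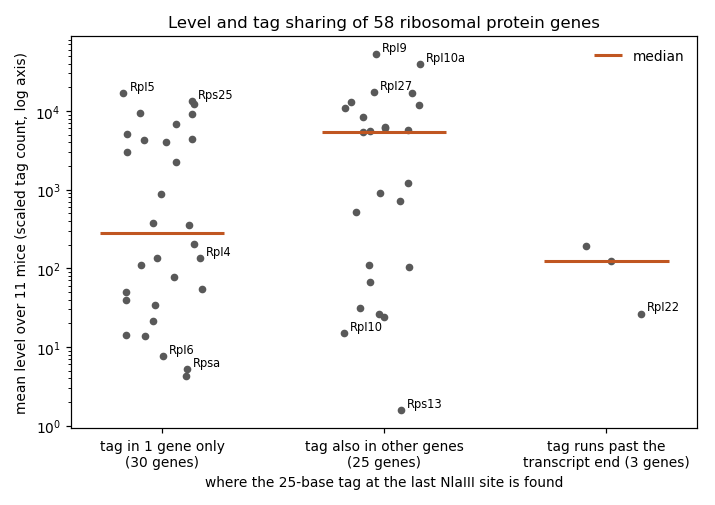
Mean level over 11 mice (scaled tag count, log axis) of 58 ribosomal protein genes, split by whether the 25-base tag was found in 1 annotated gene, also in other genes, or ran past the transcript end; each point is a gene and the bar is the median of the points. Both large classes spanned from under 50 to over 10000, with medians of 280 and 5418 over the points shown.

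The starts of these genes were compared with those of all genes in the RefSeq promoter table (GRCm38.p6), in which 47 of the 61 were found. A run of at least 8 C or T beginning with C, within 20 bases of the annotated start, was present in 22 of the 47 (46.8%), against 16.4% of 27025 genes. The letters CCGGAAG on either strand, a core of sites bound by ETS factors, occurred within 250 bases before and 50 bases after the start in 44.7%, against 9.93% of all genes. AAGATGG, part of a YY1 site, occurred on either strand in 12.8% against 7.28%, and TATAAA in 10.6% against 15.7%. A match is a description of the letters and not of binding. Windows of 30 bases with the pyrimidine run in capitals are shown for Rps6, for Rpl15 and for 2 genes that were low in single mice, Rps18 and Rpl11.
Rps6: aagtcgggCCTCTTTTTCgtgacgcctccc
Rpl15: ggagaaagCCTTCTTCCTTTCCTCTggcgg
Rps18: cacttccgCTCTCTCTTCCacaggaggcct
Rpl11: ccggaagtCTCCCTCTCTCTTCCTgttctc
On GRCm38.p6 these windows are chr4:86857347-86857376, chr14:18270969-18270998, chr17:33955646-33955675 and chr4:136053358-136053387, all on the minus strand, and the CCGGAAG letters stand just before the run in Rpl11.

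Levels of the ribosomal protein genes spanned from 1.56 to 52834 on the scaled tag count. A mean of at least 10000 was reached by 11 genes, 17 lay between 1000 and 10000, 15 between 100 and 1000, 3 between 50 and 100, and 15 were under 50. The large subunit, to which 33 of the 61 genes belong, had 9 of the 11 highest genes. The medians of the subunits were closer, at 1212 for the large and 704 for the small subunit. The 10 highest genes held 65.6% ± 0.875 of all ribosomal protein tags in WT (SD, n = 6) and 65.8% ± 2.02 for pKO (SD, n = 5).

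Rpl9, a large-subunit protein near the stalk base, was the highest, with 39879, 50587 and 57913 as the lowest, median and highest WT values and 67499, 66125, 53040, 50877 and 41633 in the pKO mice. It alone gave 16.3% of the ribosomal protein tags, and its highest mouse was 1.69 times its lowest. Rpl10a, next in the order, had 31358, 42904 and 45569 in WT and 11725, 38106, 43169, 48686 and 47937 in pKO mice. The ranges of Rpl9 and Rpl10a overlapped only between 39879 and 48686, and 1 pKO mouse stood far below all others for Rpl10a. Rpl27 (mean 17584), Rpl5 (16980) and Rplp1 (16760), also among the most abundant, had overlapping ranges over mice and cannot be ordered beyond their spread. Rplp1, a protein of the stalk that recruits elongation factors, was the most even of these, between 13592 and 22444 in WT and between 14100 and 19357 in pKO mice. Its stalk partner Rplp0 was lower, with WT values of 971 to 2008 around a median of 1298 and pKO values of 1211, 1422, 739, 812 and 1050.

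**Figure D2:**
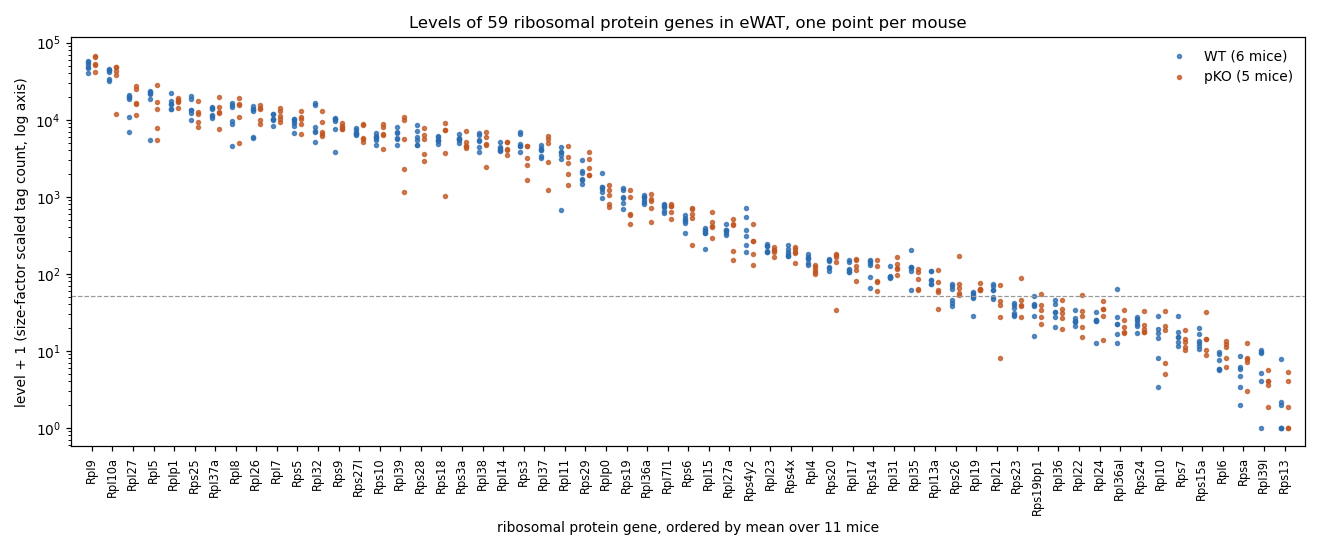
Level + 1 (size-factor scaled tag count, log axis) of 59 ribosomal protein genes in WT (6 points) and pKO mice (5 points), ordered by the mean over 11 mice; the dashed line marks a level of 50. Levels run from 52834 for Rpl9 to 1.56 for Rps13, and several abundant genes such as Rpl39 and Rps18 have single pKO mice far below the rest.

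At the low end stood genes for proteins that every ribosome of the tissue is known to hold. Rps13 was counted 18 times in all 11 libraries and was at 0 in 5 of them, which allows up to 3 tags, or a level of 2.51 to 3.44, in such a library. Rpsa, a small-subunit protein also known as the laminin receptor, had 0.965, 4.25 and 7.53 as the lowest, median and highest WT values and 6.87, 11.46, 6.11, 7.06 and 2.05 in the pKO mice. Rpl6 had 4.57 to 8.68 in WT and 5.15 to 12.2 in pKO mice, although its tag was found in 1 gene only. Rps15a and Rps7 had means of 13.9 and 14.3, and Rpl10, which joins the large subunit late in its assembly, had 14.9. For Rps15a and Rpsa the transcripts read were 5179 and 1938 bases long and gave a tag in the 3' UTR, and the shortest coding transcripts were 250 and 1599 bases, with tags that differed among the annotated transcripts. These levels therefore describe the counted tag, and whether another tag of the same gene was left uncounted was not tested.

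Where a paralog and its parent gene were both measured, the parent was usually higher. Rpl7 had a mean of 10962 and Rpl7l1 709, and Rpl39, at the exit tunnel, had 6121 while Rpl39l, known as a testis-enriched copy, had 4.33. X-linked Rpl36a had 879.7 and its copy Rpl36al, on chromosome 12, had 24.2. The tags of this last pair both hold the start codon in their CATG and are printed because they are alike.
Rpl36a: CATGgtgaacgtgcctaaaacccgc
Rpl36al: CATGgtcaacgtaccaaaaacccga
Rps4y2, an older symbol of Rps4l in RefSeq, was at 332 and its X-linked relative Rps4x at 190, the reverse order, and their ranges over mice overlapped. No transcript was annotated for Rps4y2 and the Rps4x tag ran past the transcript end, so a full tag was read for neither. Rps27l, the p53-inducible relative of Rps27, reached 6873 in the mean, with 6399 to 7907 in WT mice and 5173 to 8729 in those with pKO, the highest of the 5 paralogs. Rps19bp1, which binds Rps19 and Sirt1, was at 34.6 ± 12.4 in WT (SD, n = 6) and 34.6 ± 12.5 for pKO (SD, n = 5).

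All 61 genes together took 2.68% ± 0.176 of the counted tags in WT (SD, n = 6) and 2.58% ± 0.158 for pKO (SD, n = 5). The WT mice lay at 2.77%, 2.82%, 2.74%, 2.35%, 2.79% and 2.62%, and the pKO mice at 2.36%, 2.69%, 2.47%, 2.65% and 2.73%. The groups overlapped over nearly their whole range, and the difference between the means was smaller than either SD. WT replicate 4 and pKO replicate 1 were the lowest in their groups, at almost the same share.

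**Figure D3:**
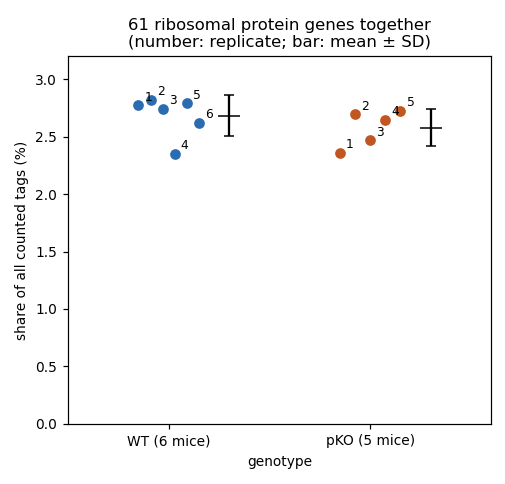
Share of all counted tags (%) taken by 61 ribosomal protein genes in each mouse, with the replicate number beside each point and the mean ± SD of 6 WT and 5 pKO mice. The shares lie between 2.35% and 2.82% in WT and between 2.36% and 2.73% in pKO mice.

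Whether loss of paternal Mest changed single ribosomal protein genes was tested with limma on log2(value + 1) over all 15453 genes, and differences are pKO minus WT on that scale. In whole tissue, fewer cells of a type and less RNA per cell cannot be told apart. The paper reports a higher adiposity index in the sequenced WT mice than in the pKO mice. Differences that go with genotype and with adiposity therefore cannot be told apart either. A mean of at least 50 in either genotype was reached by 47 ribosomal protein genes and 9906 genes in all. At a Benjamini-Hochberg adjusted p of at most 0.1, 0 of the 47 were lower in pKO mice (0.0404% of all genes were) and 0 were higher (0.0101%), or 0 in either direction against 0.0505% of all genes, with the lowest adjusted p of the 47 at 0.37 for Rpl4. edgeR, which called 0.0505% of all genes at this threshold, and DESeq2, which called 1.22%, also gave 0 of the 47. At an unadjusted p of at most 0.05 in limma, 3 were lower in pKO mice (5.77% of all genes were) and 2 were higher (4.85%), so the 5 of 47, or 10.6%, were as frequent as among all genes at 10.6%. With counts scaled to total tags the split was 3 lower and 0 higher, where 7.33% of all genes were lower and 3.33% higher. The median difference of the 61 genes was -0.066 on the log2 scale, that of all genes was -0.0025, and the individual differences ran from -0.96 to 0.61. Over the 47 with the minimum mean the median was -0.12 and the range -0.96 to 0.51, against a median of 0.0086 over the 9906 genes. Among the 47, 29 had a negative and 18 a positive difference, against 4826 and 5080 over all 9906 genes. By subunit, the median was 0.011 over 33 large-subunit and -0.078 over 22 small-subunit genes.

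**Figure D4:**
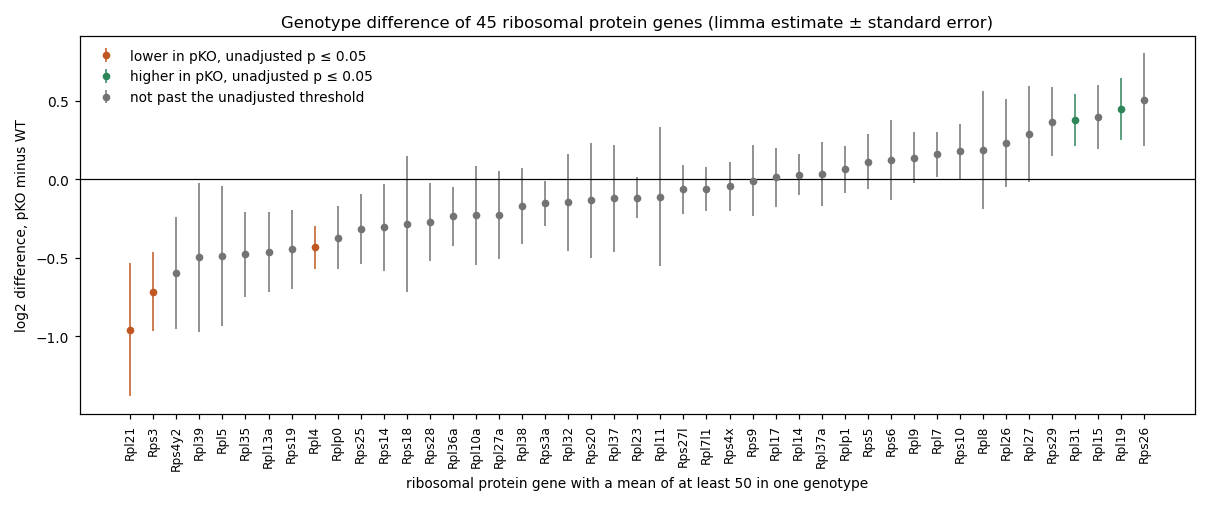
Log2 difference (pKO minus WT) with its standard error from limma for 45 of the 47 ribosomal protein genes whose mean reached 50 in one genotype, ordered by size. Rpl4, Rps3 and Rpl21 (lower) and Rpl31 and Rpl19 (higher) passed the unadjusted threshold of 0.05, and most other intervals of 1 standard error include or come near 0.

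Rpl4, a large-subunit protein with an arm that reaches into the exit tunnel, had WT values of 129, 157 and 182 (lowest, median and highest) and pKO values of 99.6, 121, 105, 131 and 111. All 5 pKO mice were below the WT mean, 5 of the 6 WT mice lay above the highest pKO mouse, and only the lowest WT mouse overlapped. The means were 154 ± 19.1 (SD, n = 6) and 113 ± 12.6 (SD, n = 5), a log2 difference of -0.43 (standard error 0.14, limma adjusted p = 0.37), with p = 0.0065 in an exact two-sided permutation test. The permutation p-values given here and below are unadjusted. They use the same values by which these 5 genes were picked and add no independent support. Rpl4 was counted 1523 times over the 11 libraries.

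Rps3, a small-subunit protein at the messenger RNA entry channel with known roles in DNA repair, had WT values of 3799, 4671 and 6990 and pKO values of 1653, 3188, 4503, 2600 and 4525. Here too 5 of the 6 WT mice lay above the highest pKO mouse. The log2 difference was -0.72 (standard error 0.25, limma adjusted p = 0.41, exact permutation p = 0.030), from 5189 ± 1249 in WT (SD, n = 6) and 3294 ± 1241 for pKO (SD, n = 5). The difference came to between -0.85 and -0.49 with each mouse left out in turn.

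Rpl21 had WT values of 46.0, 61.2 and 73.7 and pKO values of 37.8, 43.5, 26.5, 71.5 and 7.16. One pKO mouse lay inside the upper WT range and another, replicate 5, far below all others. The log2 difference was -0.96 (standard error 0.42, limma adjusted p = 0.51, exact permutation p = 0.037). Without pKO replicate 5 it was -0.48 with an unadjusted limma p of 0.085, and the unadjusted p was 0.092 in edgeR and 0.078 in DESeq2. Of the 5 pKO mice, 4 were below the WT mean. Rpl21 reached the minimum mean only through the WT group, where it was 59.9 ± 10.8 (SD, n = 6) against 37.3 ± 23.6 for pKO (SD, n = 5).

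Rpl31, which sits beside the exit tunnel, was higher in pKO mice, with WT values of 86.8, 89.0 and 125 and pKO values of 115, 96.3, 132, 117 and 164. WT replicate 3 alone reached into the pKO range. The means of 95.2 ± 14.5 (SD, n = 6) and 125 ± 25.2 (SD, n = 5) gave a log2 difference of 0.38 (standard error 0.16, limma adjusted p = 0.50, exact permutation p = 0.030). Without pKO replicate 5 it was 0.28, with an unadjusted limma p of 0.11, and with total-count scaling the p was 0.072.

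Rpl19, a large-subunit protein that forms a bridge to the small subunit, had WT values of 27.2, 50.3 and 57.7 and pKO values of 61.8, 75.6, 61.1, 60.02 and 62.4. The groups did not overlap, which was so for 1 of the 47 genes in this direction and for 0.717% of all genes. The log2 difference was 0.45 (standard error 0.20, limma adjusted p = 0.51, exact permutation p = 0.0065) between 47.9 ± 10.9 (SD, n = 6) and 64.2 ± 6.46 (SD, n = 5), and 0.30 with an unadjusted limma p of 0.082 without WT replicate 4. With total-count scaling the p was 0.055. It reached the minimum mean only through the pKO group and was counted 624 times in all libraries.

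Rpl5, Rpl11, Rps6 and Rpl13a, which also have known roles outside protein synthesis, did not pass either threshold. Rpl5 and Rpl11, which bind Mdm2 when ribosome assembly is disturbed, had adjusted p-values of 0.76 and 0.96 in limma. Rps6, phosphorylated downstream of mTOR, had 482 ± 83.2 in WT (SD, n = 6) and 553 ± 192 for pKO (SD, n = 5), and Rpl13a, known as a regulator of inflammatory messenger RNAs, had 87.8 ± 15.7 and 67.4 ± 28.4 (SD, n = 6 and n = 5), with limma adjusted p-values of 0.92 and 0.58.

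Spread between mice was set beside that of other genes of the same level. For means of at least 10000, the coefficient of variation had a median of 19.8% in WT and 32.3% in pKO mice over 11 ribosomal protein genes, against 14.1% and 20.8% over 152 other genes. Between 1000 and 10000 it was 19.2% and 31.6% over 17 ribosomal protein genes, against 12.6% and 21% over 1783 others. Between 100 and 1000 the WT medians were alike, at 15.3% and 15%, and the pKO medians were 28.3% and 22.6%. A highest mouse at least 3 times the lowest was found in 5 of the 11, 6 of the 17 and 6 of the 15 genes of these classes, or 45.5%, 35.3% and 40.0%, against 17.1%, 17% and 20.1% of other genes. The coefficient was larger in pKO than in WT mice for 34 of 43 ribosomal protein genes with a mean of at least 100 (79.1%), and for 74.9% of other genes at that level. These shares are descriptions, since genes are not independent replicates.

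In many of these genes single mice lay far below the others. Over these 43 genes, 19 (44.2%) had at least 1 mouse that lay 1 log2 unit or more below the median of the 11 mice, against 20.9% of all 8122 genes at that level. In pKO replicate 1 there were 6 such genes, Rps18, Rps20, Rpl10a, Rpl37, Rps3 and Rps6, and the median deviation of all 43 was -0.26, while in the other 10 mice it lay between -0.068 and 0.068. Of all genes in that mouse, 5.47% were as far below their median, against 14% of the ribosomal protein genes. Rps18 was at 1029 in it and between 3666 and 9038 in the other pKO mice, with 4790 to 6076 in WT. For Rpl37 the value was 1211 in it and 2802 to 6212 in the other pKO mice, and Rps20 was at 32.6 against 139 to 181.

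Other mice had other sets. In pKO replicate 5, Rpl39 was at 1165 and Rpl38 at 2407, and 6.59% of all genes were as far below their median in that mouse. Rpl39 was also low in pKO replicate 3, at 2320, while the other 3 pKO mice had it at 5566 to 10836. WT replicate 4 had 5 low genes, with Rpl5 at 5393 and Rpl8 at 4504 beside Rpl27, Rpl26 and Rps9, and pKO replicate 4 had Rpl5 at 5465 and Rpl8 at 4981 as well. In each of these 2 mice 11.6% of the 43 genes were low, against 3.95% of all genes in WT replicate 4 and 2.08% in pKO replicate 4. Rpl11 was low in WT replicate 2, at 667, and in pKO replicate 2, at 1411. WT replicates 1, 3 and 6 had 0 low genes among the 43, where 0.739%, 0.566% and 1.6% of all genes were as low. The low values occurred in both genotypes, in 0 to 5 genes per WT mouse and 1 to 6 per pKO mouse. Of all genes, 0.566% to 3.95% were as low in WT mice and 1.58% to 6.59% in pKO mice. The sets differed from mouse to mouse, but some genes, such as Rpl5, Rpl8, Rpl39 and Rpl11, were low in more than 1 mouse. Among the 43, 8 of 19 genes with a tag in 1 gene and 10 of 20 with a shared tag had at least 1 such low mouse.

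**Figure D5:**
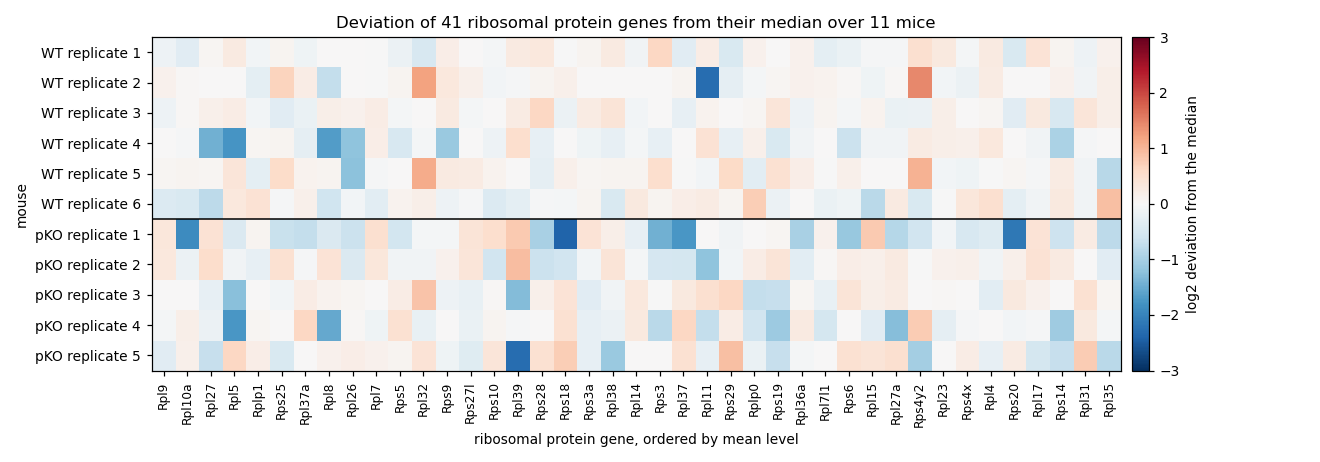
Log2 deviation of each of 41 ribosomal protein genes (mean level at least 100) from its median over 11 mice, with mice in rows and genes ordered by mean level. Blue cells mark low values, such as Rps18, Rpl10a and Rpl37 in pKO replicate 1, Rpl39 in pKO replicates 3 and 5, and Rpl5 and Rpl8 in WT replicate 4 and pKO replicate 4.

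Summed markers of other cell types were read beside these values, and marker genes were counted at the unadjusted threshold. Of all genes with the minimum mean, 5.77% were lower and 4.85% higher in pKO mice at that threshold. No marker passed the adjusted threshold. Macrophage markers summed to 9324 to 16231 in WT and 8888 to 11462 in pKO mice, and 4 of the 13 with the minimum mean were lower in pKO mice at the unadjusted threshold. Mesothelial markers summed to 1188 to 1625 and 1445 to 2903 (3 of 6 higher), fibroblast and progenitor markers to 55317 to 67441 and 66059 to 77915 (2 of 10 higher), and erythroid markers to 378 to 961 and 652 to 1656 (2 of 3 higher). Of the 12 adipocyte markers 2 were higher, and of the 9 endothelial markers with the minimum mean 1 was. The 10 T cell and 6 B cell markers summed to at most 935 and 502 in any mouse, and only 1 and 3 of them reached the minimum mean and could be called, of which 0 passed. Among those below it, Lck was at 23.8 ± 4.35 in WT (SD, n = 6) and 12.4 ± 8.45 for pKO (SD, n = 5), with an unadjusted limma p of 0.018. Of the 10 T cell markers, 6 had a negative and 4 a positive log2 difference. Their summed level was 750 ± 120.1 in WT (SD, n = 6) and 769.5 ± 195.9 for pKO (SD, n = 5). The part of these cell types in the ribosomal protein levels was not tested.

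Genes that work with the ribosome were counted at the same unadjusted threshold, which 10.6% of all genes with the minimum mean passed in either direction. Of 75 mitochondrial ribosomal protein genes 71 reached the minimum mean, and 3 of these were lower and 5 higher in pKO mice (11.3%), with a median difference of 0.075 on the log2 scale. Of the 14 elongation factors 13 reached the minimum mean and 2 passed. Eef2, which moves the ribosome along the messenger RNA and is itself translated from a pyrimidine-tract messenger, was lower with 12089 ± 1374 in WT (SD, n = 6) and 9509 ± 2677 for pKO (SD, n = 5), and Hbs1l, a ribosome rescue factor, was higher. Of 37 initiation factors 36 reached the minimum mean and 1 passed (2.78%), Eif3m, with 605 ± 33.9 in WT (SD, n = 6) and 360.1 ± 180 for pKO (SD, n = 5), a log2 difference of -0.86 (standard error 0.22, limma adjusted p = 0.30). Of the 62 ribosome biogenesis genes 57 reached it, and 3 were lower and 1 higher (7.02%). Of these, Nop58, a core protein of small nucleolar ribonucleoproteins, had 636 ± 48.3 in WT (SD, n = 6) and 490 ± 51.9 for pKO (SD, n = 5), and the median difference of the list was -0.034 on the log2 scale. Of 29 genes of mTOR signalling and of the control of pyrimidine-tract messengers 22 reached it and 2 passed (9.09%). Larp1 was higher and Mtor lower, with log2 differences of 0.58 and -0.41 and limma adjusted p-values of 0.51 and 0.52. In the 18 other pyrimidine-tract genes, all with the minimum mean, Btf3 was higher and Eef2 lower (11.1%). The 5 genes outside the naming rule whose products are or bind ribosomal proteins did not pass, among them Fau, a fusion of a ubiquitin-like and a ribosomal protein, at 31540 ± 8410 in WT (SD, n = 6). None of these genes passed the adjusted threshold.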

How the data were processed

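SAGE libraries were made from eWAT RNA of 6 WT and 5 pKO mice, with 1 mouse per library, and sequenced on the SOLiD system. Tags were aligned by the authors in their own modification of the SOLiD SAGE analysis software. Per the labels the genome build was mm10, and edgeR 3.2.3 is listed in the submitters' processing notes. The annotation and the rule for tags with several origins are not given in the sources used here. The deposited signal values were tag counts over 1 size factor per library. Every positive value was a whole multiple of the value of 1 tag (100% within 0.01), and the recovered counts gave the depths. No 2 libraries agreed within sampling noise (lowest chi-square per degree of freedom 17.67 over 55 pairs).

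Genotypes were compared with limma 3.58.1 (R 4.3.3, trended prior) on log2(value + 1) over 15453 genes with Benjamini-Hochberg adjustment, and differences of genes with few tags are understated on this scale. A gene was called when its mean reached 50 in a genotype and its adjusted p was at most 0.1, or its unadjusted p at most 0.05. Exact two-sided permutation tests used all 462 splits of the mice, so the smallest p was 0.0022. The model was also run on simulated counts with 1 dispersion for all genes and both genotypes. That setting lacks the wider spread of the pKO mice, so it does not show how the test performs on these data. Members and lists were chosen with earlier results of these data known. The members named were the 6 highest and 6 lowest, those past either threshold, the 3 with the largest coefficient of variation, a set with known roles and paralog pairs. Values of some genes are not reported here and are left out of the plots of single genes, but the genes stay in counts, medians and sums. The low mice, tags and starts were described after the values were seen.

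Tags were read from GENCODE M21 transcripts as the last CATG and the 21 bases after it, from the longest RefSeq-linked coding transcript that held a full tag. They were matched at any CATG of all annotated transcripts but not to the genome. Starts came from the RefSeq promoter table. Alternatives were total-count scaling, TMM factors, pseudocounts of 0.5 and 10, at least 10 reads in every library, edgeR 4.0.16 and DESeq2 1.42.0 on the recovered counts, a robust and an untrended prior, a replicate block and each mouse left out. Floors for counts of 0 cover counting error only.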

Additional observations from a re-analysis of the deposited data

Results flagged for a closer look

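Of 62 groups tested (30 named genes and the share of tags, in each genotype), 11 held a mouse that stood apart from the rest of its group. A nominal rate of about 1 in 20 groups would give 3.1, but 11 cannot be read as an excess over it. Some genes were named for their spread or genotype difference in these same values, and the groups share the same mice. No rate over all genes is given beside it. In WT replicate 4, Rpl5 was at 5393 against 18462 to 23652 in the other WT mice and Rpl19 at 27.2 against 47.1 to 57.7, while Rps7 was at 27.2 against 10.7 to 16.4 and Rps13 at 6.80 against 0 to 1.19. The last 3 rest on few tags. Rpl11 in WT replicate 2 was at 667 against 3076 to 4385. WT replicate 6 was high for Rplp0 at 2008 against 971 to 1356 and for Rpl36al at 61.7 against 11.6 to 26.8. Rpl31 in WT replicate 3 was at 125 against 86.8 to 93.2. Among pKO mice, Rpl10a in replicate 1 was at 11725 against 38106 to 48686, Rpl19 in replicate 2 at 75.6 against 60.02 to 62.4, and Rps15a in replicate 5 at 30.7 against 7.73 to 13.2. The causes were not tested.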

How the results depend on the processing

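Over 10 other settings and 11 fits that left out 1 mouse each, 0 ribosomal protein genes passed the adjusted threshold in either direction. The unadjusted count of lower genes was 2 to 3 in the other settings and 2 to 8 with a mouse left out (6 without pKO replicate 1, 8 without pKO replicate 2 and 5 without pKO replicate 4, where 6.89%, 8.5% and 6.7% of all genes were lower against 5.77% with all mice). The count of higher genes was 0 with total-count scaling, where 3.33% of all genes were higher, and 0 to 2 with a mouse left out. It was 0 without WT replicate 1, 2 or 4 and without pKO replicate 3 or 5, where 3.30% to 4.77% of all genes were higher, and 1 without WT replicate 6, where 4.30% were. The median log2 difference of the members lay between -0.10 and -0.031 in the other settings and between -0.097 and 0.028 with a mouse left out, and was positive only without pKO replicate 1. Rpl4 and Rps3 kept their direction and an unadjusted p of at most 0.05 in all 21 fits. Rpl21 missed it in edgeR, DESeq2 and limma without a trend and without WT replicate 1, 2, 4 or 5 or pKO replicate 3 or 5, and gave no value with at least 10 reads in every library. Rpl31 missed it with total-count scaling and without any WT mouse but replicate 3 and without pKO replicate 3 or 5. Rpl19 did with total-count scaling and without WT replicate 1, 2 or 4 or any pKO mouse. The causes were not tested. Over all genes the split of lower and higher at the unadjusted threshold was 572 and 480, and 726 and 330 with total-count scaling, and the adjusted count was 5, 121 in DESeq2, 11 with at least 10 reads in every library and 91 without pKO replicate 2. Without the 10 most abundant genes the share of tags was 3.23% in WT and 3.13% in pKO mice. With a mouse left out it was 2.66% to 2.75% and 2.54% to 2.64%. Mice with the same number did not deviate together (mean correlation -0.021, against 0.0039 for other numbers, and 1 of 5 pKO mice was most like the WT mouse of its number). With the replicate block, which leaves out WT replicate 6, 3 genes were lower and 1 was higher (4.96% and 3.91% of all genes) and the median difference was -0.031, Rpl31 and Rpl19 missed the unadjusted threshold, and over all genes the adjusted count was 1.

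Levels under 50, in 15 of the 61 genes, rest on few tags.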
